A study of Danio rerio with 8 samples.

Results

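SYNPR (ENSDARG00000037587) is by its symbol the gene of synaptoporin, and its transcripts were followed across 5 clusters of sorted zebrafish skin cells. It is 1 of 19914 features in the deposited table, taken as the row whose symbol is SYNPR in capitals. A second row, synpr in lower case (ENSDARG00000044278), has another gene identifier and is kept apart below. How both genes are related was not examined here. SYNPR was chosen by its measured values in these clusters, the share of cells with it and its level in them, so they are given as a description, with no test.

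Synaptoporin is a membrane protein of synaptic vesicles in mammals and belongs to a small family with synaptophysin, the synaptophysin-like proteins and the synaptogyrins. These proteins cross the membrane several times through a MARVEL domain, a fold found in proteins of vesicles and of cell contacts. In neurons, family members travel with vesicles that fuse with the plasma membrane. Iridophores, the reflective pigment cells of fish skin, hold stacks of guanine crystals in membrane-bound organelles and descend from the neural crest.

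The cells came from the flank dermis of untreated adult zebrafish carrying both pnp4a:palmmCherry and pnp4a:nlsEos. Both reporters are driven by the promoter of pnp4a, an iridophore gene, and cells bright for both were sorted singly, so cells with little pnp4a activity were left out by the gate. There were 8 libraries, 4 from dark stripe skin and 4 from light interstripe skin, and skin of more than 1 fish was pooled before sorting. The deposited values pool all libraries within clusters drawn from the same expression data: c3 (122 cells), c5 (72), c1 (194), c2 (176) and c4 (82). By the study's account c3 came mostly from interstripes and c5 mostly from stripes, and c1 was an iridophore cluster shared between both. It gives c2 and c4 as shared too, c2 more from stripes and c4 more from interstripes. The study describes lower iridophore markers in c2 and c4 and proposes that their cells may not be fully differentiated. Each cell's origin was not used here, so SYNPR was not compared between skin bands.

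Each cluster is thus 1 pooled value without replicates. Intervals on a share of cells are exact Clopper-Pearson 95% intervals, which cover counting error only, and an SD is the spread over cells and not an error between fish. Cells had 846, 815, 789, 740 and 1395 genes detected on average in c3, c5, c1, c2 and c4. A gene counts as detected where its corrected value is above 0. The part that this number has in a gene's share was not tested. Depth per cell before the authors' correction is unknown for each cluster, beyond the limits on features and counts that the authors set for all kept cells. Of 9 measured iridophore markers, 9 were detected in every cluster. Their summed mean was 20.5 in c3, 19.6 in c5, 21.3 in c1, 12.2 in c2 and 15.4 in c4. The most widely found were apoda.1, lypc and pnp4a, with pnp4a in 82.8% of c3 cells, 79.2% of c5 cells, 79.4% of c1 cells, 75.6% of c2 cells and 98.8% of c4 cells.

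SYNPR was found in 195 of the 646 cells (30.2%, 26.7 to 33.9%), and these cells were unevenly spread. In c3, 60 of 122 cells had it (49.2%, 40.0 to 58.4%). In c5, 5 of 72 cells had it (6.94%, 2.29 to 15.5%). The counts were 46 of 194 cells in c1 (23.7%, 17.9 to 30.3%) and 35 of 176 cells in c2 (19.9%, 14.3 to 26.6%). In c4, 49 of 82 cells had it (59.8%, 48.3 to 70.4%).

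SYNPR was therefore widespread in c3 and c4, present in a minority of c1 and c2 cells, and rare in c5. The intervals of c3 and c4 overlapped, as did those of c1 and c2, and those of c2 and c5. The interval of c3 overlapped none of those of c5, c1 and c2, and the interval of c5 lay below that of c1. SYNPR was chosen by these shares, and the clusters were drawn from the same data, so this separation is a description only. How many of all genes have intervals that separate in this way was not counted. Cluster c3 held 18.9% of all cells and 30.8% of the cells with SYNPR, whereas c5 held 11.1% of all cells and 2.56% of those with SYNPR. Cluster c4 held 12.7% of all cells and 25.1% of those with SYNPR.

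**Figure D1:**
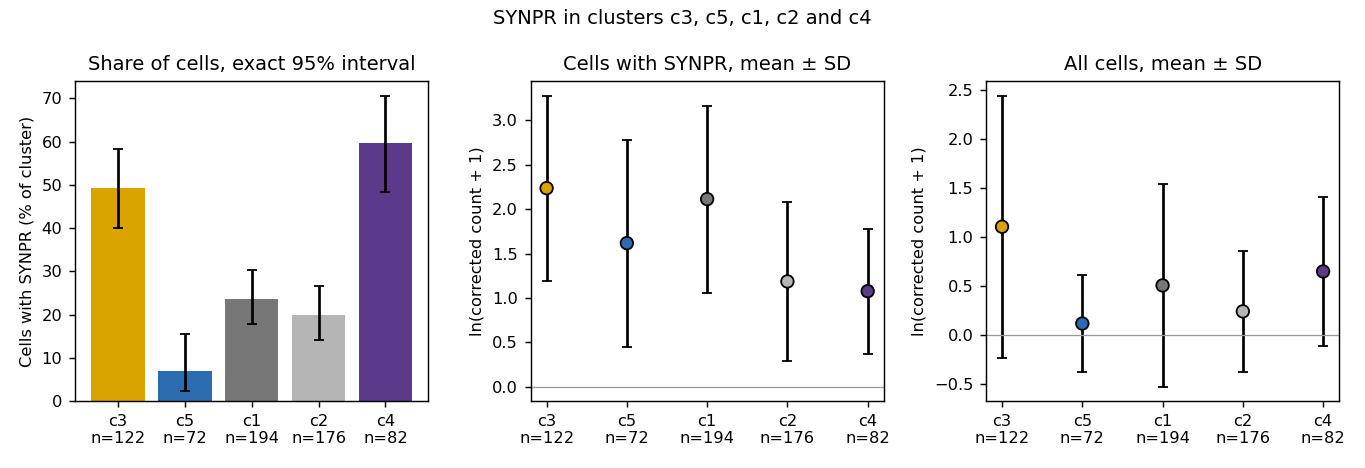
SYNPR in the 5 clusters, c3 at the left, with the number of cells in each. Left, percent of cells with SYNPR with exact 95% intervals. Middle, mean ± SD over the cells that had it. Right, mean ± SD over all cells, both as ln(corrected count + 1). The share was 49.2% in c3, 6.94% in c5 and 59.8% in c4, while the mean over all cells was highest in c3 at 1.1.

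The amount of transcript per expressing cell gave another order. Levels are natural logs of the corrected count plus 1, where a cell with 1 corrected count has 0.69. Over cells that had SYNPR the mean was 2.24 ± 1.04 in c3, 1.62 ± 1.17 in c5, 2.11 ± 1.05 in c1, 1.19 ± 0.89 in c2 and 1.08 ± 0.70 in c4, with the SD taken across single cells. Turned back from the log, these means are 8.37 corrected counts in c3, 4.04 in c5, 7.28 in c1, 2.28 in c2 and 1.94 in c4. A value turned back in this way is not the mean of the corrected counts. The level was lower in c2 and c4 than in c3 and c1, as was the median level of other genes with a like share in c3, given below. The largest difference in this level between clusters was 1.16, between c3 and c4. The SDs are spreads over cells and not errors of these means, and the c5 value rests on 5 cells.

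Over all cells, with cells lacking the gene set to 0, the mean was 1.1 ± 1.34 in c3, 0.11 ± 0.50 in c5, 0.50 ± 1.04 in c1, 0.24 ± 0.62 in c2 and 0.64 ± 0.76 in c4. By this measure c3 was highest, then c4, c1, c2 and c5. The SDs were as large as the means or larger in every cluster, because many cells had a corrected SYNPR value of 0. Such cells made up 50.8% of c3, 93.1% of c5, 76.3% of c1, 80.1% of c2 and 40.2% of c4.

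The share of cells in c3 was 7.08 times that in c5. The outer bounds of this ratio, from the ends of both intervals, were 2.59 and 25.5. At least a 2-fold larger share in c3 was found for 9.89% of 1779 genes, all with a share of 10% or more in c3 or c5, and for 13.1% in the other direction. SYNPR had the 6th largest difference in share among these genes, at 42.2 percentage points, and stood at place 14 by the difference in mean. SYNPR was chosen with these values known, so the place is a description only. The median difference in mean, c3 minus c5, was -0.04 over all 1779 genes and 0.99 for SYNPR.

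The ratio was 2.07 for c3 over c1 (outer bounds 1.32 and 3.26) and 2.47 for c3 over c2 (1.51 and 4.09). A 2-fold larger share in c3 was found for 5.44% of 1598 genes against c1, with 3.63% the other way, and for 22.9% of 1470 genes against c2, with 3.4% the other way. Divided by genes detected per cell, the ratio for c3 over c1 was 1.93, which is under 2. A ratio of 2 or more was thus common against c2, where the median gene had a share 1.26 times larger in c3, and less common against c1, where that median was 1.09.

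For c3 over c4 the ratio was 0.82 (0.57 and 1.21), because SYNPR had a larger share of cells in c4. Most genes did. The median ratio over 2417 genes was 0.44, and 63.6% of them had at least a 2-fold larger share in c4, against 0.827% in c3. SYNPR had a higher ratio than most, at place 179. Dividing each share by the genes detected per cell turned the direction, to 1.36 times in favour of c3. Another scale is the rate implied by a share, minus the natural log of the share of cells without SYNPR. On that scale the ratio was 0.74, in favour of c4. The part that the larger number of genes detected in c4 has in its SYNPR share was not tested.

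**Figure D2:**
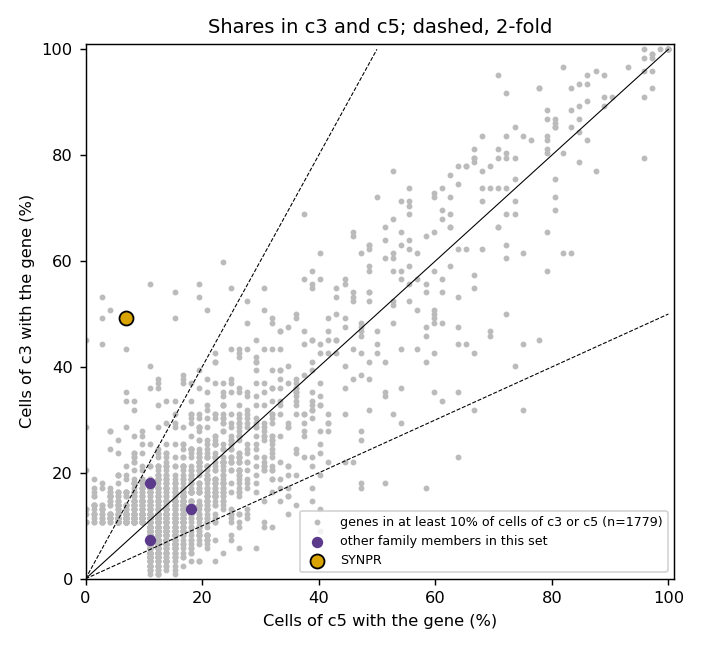
Percent of cells with a gene in c3 (vertical) and in c5 (horizontal) for the 1779 genes that reached 10% of cells in c3, in c5 or in both. The solid line marks equal shares and the dashed lines 2-fold differences. SYNPR lies well above the upper dashed line at 49.2% and 6.94%, and its 3 relatives in this set lie between the dashed lines.

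The difference in mean between c3 and another cluster can be split into a part from the share of cells and a part from the level in expressing cells, and the split differed between clusters. Against c5 the share gave 0.81 of the 0.99 and the level gave 0.17. Against c1 the share gave 0.55 of the 0.60 and the level 0.04. The larger share of cells thus made up most of both differences. The level in expressing cells differed by 0.62 between c3 and c5, where it rests on 5 c5 cells, and by 0.12 between c3 and c1. Against c2 the parts were 0.50 and 0.36 of 0.86. Against c4 they had opposite signs, -0.18 from the share and 0.63 from the level, with a sum of 0.46.

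**Figure D3:**
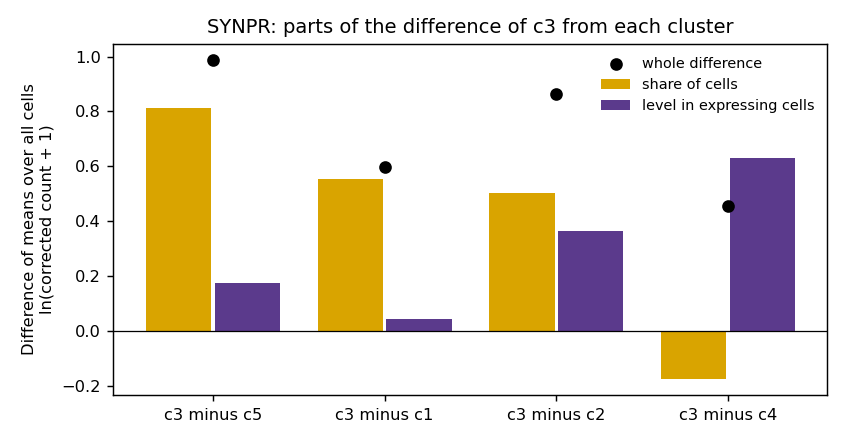
Difference of the SYNPR mean over all cells, c3 minus each other cluster, in ln(corrected count + 1). Yellow bars are the part from the share of cells, purple bars the part from the level in expressing cells, and black points their sum. The share part is 0.81 against c5 and -0.18 against c4, where the level part of 0.63 outweighs it.

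Set beside genes with a like share in c3, SYNPR lay below their median share in c5, c1, c2 and c4. SYNPR was chosen by its values in these clusters, so its place among these genes is a description only. In c3, 135 other genes were found in a share within 10 percentage points of that of SYNPR, a window set after the values were seen. Their median share was 43.1% in c5, 41.2% in c1, 46.6% in c2 and 80.5% in c4. Of these 135 genes, 5 had a smaller share than SYNPR in c5, 7 in c1, 2 in c2 and 3 in c4. The 5 in c5 were rgs4, rdh5, tjp1a, lgals1l1 and zgc:110699. SYNPR was also low in its level per expressing cell. In c3 it had 2.24 against a median of 2.73 over the 135 genes, 24 of which were lower. Their median was 2.82 in c5, 2.79 in c1, 1.60 in c2 and 1.36 in c4, so these genes too had lower levels per expressing cell in c2 and c4.

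Among all features, SYNPR ranked 189 by share of cells in c3, 2175 in c5, 430 in c1, 518 in c2 and 419 in c4. By rank within a cluster SYNPR thus stood higher in c3 than in c4. How the number of genes detected per cell moves such ranks was not tested. By mean over all cells it ranked 239 in c3, 3169 in c5, 531 in c1, 782 in c2 and 518 in c4.

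Of 11 measured members of the synaptophysin and synaptogyrin family, 4 were found in at least 10% of cells of c3 or c5. SYNPR itself, chosen by these values, was past 2-fold in c3, and 0 of the other 3 were past 2-fold in either direction, beside 9.89% of all genes in c3 and 13.1% in c5. The other synaptoporin row, synpr, named synprb in the reference gene names, was found in 1 c3 cell, 0 of 72 c5 cells, 3 c1 cells, 2 c2 cells and 0 of 82 c4 cells. For a count of 0, the limit that 3 cells would make is 4.17% in c5 and 3.66% in c4. Far fewer cells thus had synpr than SYNPR. How the counting treated reads that fit both genes was not tested.

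The synaptophysin genes sypa and sypb, whose mammalian counterpart is a major protein of synaptic vesicles, were found in few cells. sypa was in 4.10% of c3 cells (1.34 to 9.31%), 1.39% of c5 cells (0.0352 to 7.50%), 4.64% of c1 cells, 0.568% of c2 cells and 2.44% of c4 cells. These shares stand for 5 c3 cells, 1 c5 cell, 9 c1 cells, 1 c2 cell and 2 c4 cells, and whether they also had SYNPR was not analysed here. sypb was at 2.44% or less in every cluster.

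The synaptophysin-like genes had larger shares than sypa and sypb in every cluster, except that sypl2b and sypa were both at 4.10% in c3. sypl2a (ENSDARG00000055307) was in 18.0% of c3 cells (11.7 to 26.0%), 11.1% of c5 cells (4.92 to 20.7%), 12.9% of c1 cells, 8.52% of c2 cells and 30.5% of c4 cells. sypl2b was in 4.10% of c3 cells, 4.17% of c5 cells, 8.76% of c1 cells, 3.41% of c2 cells and 6.10% of c4 cells. The c3 and c5 intervals of sypl2a overlapped.

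The synaptogyrins are the more distant branch of the family. syngr2a (ENSDARG00000052429) was in 13.1% of c3 cells (7.69 to 20.4%), 18.1% of c5 cells (9.98 to 28.9%), 18.6% of c1 cells, 7.39% of c2 cells and 26.8% of c4 cells. syngr1a was in 7.38% of c3 cells, 11.1% of c5 cells, 6.70% of c1 cells, 2.84% of c2 cells and 3.66% of c4 cells. Both had a larger share in c5 than in c3, within overlapping intervals. syngr2b, syngr3a and syngr3b were at 3.66% or less in every cluster.

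**Figure D4:**
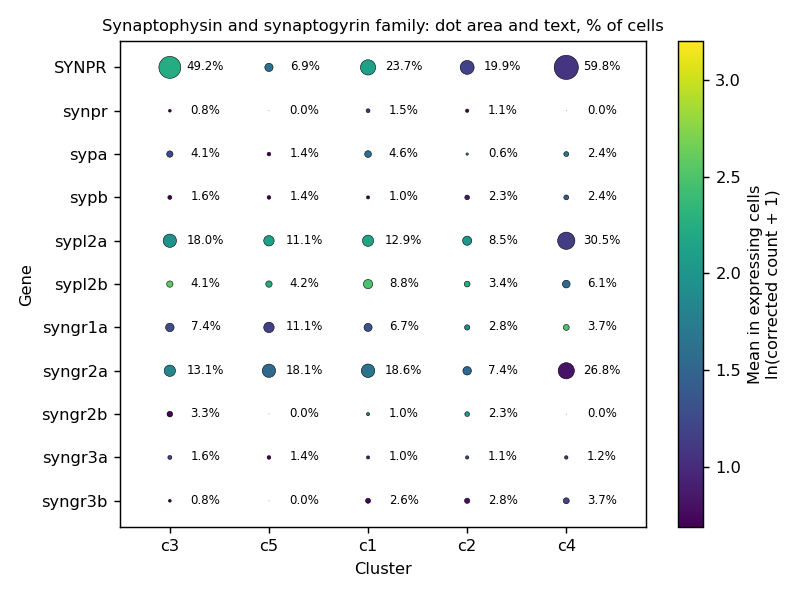
Measured genes of the synaptophysin and synaptogyrin family (rows) in clusters c3, c5, c1, c2 and c4 (columns). Dot area and the number beside it give the percent of cells with the gene, and colour gives the mean in expressing cells as ln(corrected count + 1). After SYNPR the largest share is that of sypl2a, 30.5% in c4, and synpr lies at 1.55% or less throughout.

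Of 31 measured genes on the list of synaptic vesicle proteins, 0 were found in at least 10% of cells of c3 or c5, and 30 were under 10% in every cluster. The exception was syt1a, a synaptotagmin gene whose product senses calcium at nerve terminals, found in 2.46% of c3 cells, 1.39% of c5 cells, 3.09% of c1 cells, 3.41% of c2 cells and 9 of 82 c4 cells. sv2a, a vesicle transporter-like gene, was in 3.28% of c3 cells and 2.78% of c5 cells. dnajc5aa, a vesicle chaperone gene, was in 5.74% of c3 cells and 8.33% of c5 cells.

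Of 51 measured genes of SNARE and membrane fusion proteins, which drive vesicle fusion in all cells, 6 were found in at least 10% of cells of c3 or c5. None of the 6 had a 2-fold larger share in c3, against 9.89% of all genes, and 3 had one in c5, against 13.1%. The 3 were vamp5, stx6 and stx8, each with overlapping intervals. All 3 were under 10% in c3 and entered the 6 only through c5, so their direction is no result about this list. vamp5 was in 7.38% of c3 cells (3.43 to 13.5%), against 19.4% of c5 cells (11.1 to 30.5%). vamp3, a vesicle SNARE of endosomes, was the most widely found, in 36.9% of c3 cells, 30.6% of c5 cells, 25.8% of c1 cells, 33.5% of c2 cells and 74.4% of c4 cells. napab, an adaptor that recycles SNAREs, was in 18.9% of c3 cells and 22.2% of c5 cells, and stx12, an endosomal syntaxin gene, in 12.3% and 9.72%. The median difference in share over the 6 members, c3 minus c5, was -4.78 percentage points, and over all 1779 genes it was -1.02. The 3 members that entered through c5 are part of that first median.

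Outside the family, other MARVEL domain genes gave 3 of 15 measured members in at least 10% of cells of c3 or c5. cmtm6, which in mammals encodes a regulator of membrane proteins at the cell surface, was in 85.2% of c3 cells, 80.6% of c5 cells, 80.4% of c1 cells, 74.4% of c2 cells and 97.6% of c4 cells. MYADM was in 18.9% of c3 cells and 11.1% of c5 cells. cmtm7 was past 2-fold in c5, as were 13.1% of all genes, with 6.56% of c3 cells (2.87 to 12.5%), against 13.9% of c5 cells (6.87 to 24.1%). It reached 10% through c5 only. The other 12 measured genes on this list were under 10% in every cluster. The listed occludin symbol ocln had no match among the features, so it has no measured share.

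Of 12 measured neuron genes, 10 were under 10% in every cluster. The others were uchl1 and nefma. Only uchl1 reached 10% in c3 or c5, through c3 alone, and it was past 2-fold in c3, as were 9.89% of all genes. None was at 0 in c3 or c1, while stmn2a, stmn2b and snap25b were at 0 in c5, gap43 in c2 and nefmb in c4. uchl1 (ENSDARG00000026871), a ubiquitin hydrolase gene used as a neuronal marker, was in 33.6% of c3 cells (25.3 to 42.7%), 6.94% of c5 cells (2.29 to 15.5%), 20.1% of c1 cells, 23.3% of c2 cells and 59.8% of c4 cells. uchl1 thus followed the same order of shares as SYNPR except that c2 lay above c1. This order was not particular to a neuron gene. The fibroblast gene col5a1, given below, had the full order of SYNPR, with 14.4% of c1 cells and 13.1% of c2 cells. In expressing cells the level of uchl1 was 2.64 in c3 and 3.25 in 5 cells of c5, while that of SYNPR was lower in c5. The summed mean of the 12 genes was 1.15 in c3, 0.46 in c5, 0.80 in c1, 0.65 in c2 and 1.50 in c4, and uchl1 alone made up 0.89 in c3. nefma, a neurofilament gene, was in 2.46% of c3 cells, 1.39% of c5 cells and 13.4% of c4 cells. elavl4, an RNA-binding protein gene of neurons, was in 4.10% of c3 cells, 6.94% of c5 cells and 8.54% of c4 cells.

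Of 9 measured Schwann cell and glial genes, 4 were found in at least 10% of cells of c3 or c5, and 2 of the 4, the myelin genes mpz and mbpb, were past 2-fold in c5, as were 13.1% of all genes. Both were under 10% in c3 and entered the 4 only through c5. mpz was in 2.46% of c3 cells (0.510 to 7.02%), against 16.7% of c5 cells (8.92 to 27.3%). The summed mean of this list was 1.04 in c3, 2.11 in c5, 1.16 in c1, 1.08 in c2 and 1.55 in c4, so it ran against SYNPR between c3 and c5. mbpa was at 0 in c5. The most widely found members of this list were sox10 and foxd3, which pigment cell lineages also use. Of the summed mean, sox10 made up 0.47 in c3 and 0.88 in c5, and foxd3 0.31 in c3 and 0.41 in c5. The part of glial transcripts in the SYNPR difference was not tested.

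Markers of other skin cells were mostly under 10% of cells in every cluster. Of 8 neuroendocrine and Merkel cell genes, 8 were under 10% in every cluster, with scg2b highest at 5.56% in c5, and atoh1a, sox2 and scg3 were at 0 in c3. Of 7 melanophore genes, 7 were under 10%, with dct highest at 9.02% in c3. Of 4 endothelial genes, 4 were under 10%, with pecam1 highest at 8.33% in c5. Immune genes had 6 of 7 and keratinocyte genes 6 of 8 under 10%. The immune gene coro1a was at 7.38% in c3, 13.9% in c5 and 18.3% in c4. The keratin gene krt4 was at 4.92% in c3, 4.17% in c5 and 12.2% in c4. icn, a calcium-binding protein gene on the keratinocyte list, was in 73.8% of c3 cells, 72.2% of c5 cells, 70.6% of c1 cells, 76.1% of c2 cells and 93.9% of c4 cells. The summed means of the immune list were 0.32 in c3, 0.46 in c5, 0.32 in c1, 0.63 in c2 and 0.61 in c4. Those of the keratinocyte list were 2.04 in c3, 2.25 in c5, 2.02 in c1, 2.12 in c2 and 2.38 in c4.

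The xanthophore and fibroblast lists each had 1 member in at least 10% of c3 or c5 cells, and both of these members were past 2-fold in c3, as were 9.89% of all genes. Both were under 10% in c5, so they passed the filter through c3 only. pax7a, a transcription factor gene of xanthophore lineages, was in 21.3% of c3 cells (14.4 to 29.6%), 6.94% of c5 cells (2.29 to 15.5%) and 39.0% of c4 cells. col5a1, a fibrillar collagen gene, was in 27.0% of c3 cells (19.4 to 35.8%), 9.72% of c5 cells (4.0 to 19.0%) and 41 of 82 c4 cells. The summed mean of the xanthophore genes was 0.90 in c3, 0.50 in c5, 0.65 in c1, 1.62 in c2 and 1.71 in c4, and pax7a alone made up 0.60 in c3 and 0.16 in c5. The next most widely found xanthophore genes, gch2 and scarb1, had a smaller share in c3 than in c5, within overlapping intervals. gch2, a pteridine synthesis gene, was in 4.10% of c3 cells, 8.33% of c5 cells, 6.70% of c1 cells, 13.1% of c2 cells and 30.5% of c4 cells. scarb1, a carotenoid uptake gene, was in 6.56% of c3 cells, 6.94% of c5 cells, 10.3% of c1 cells, 15.3% of c2 cells and 9 of 82 c4 cells. The summed mean of the fibroblast genes was 0.82 in c3, 0.35 in c5, 0.47 in c1, 0.94 in c2 and 1.41 in c4, and col5a1 alone made up 0.61 in c3 and 0.20 in c5. The part of these genes in the SYNPR values was not tested.

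The genes most like SYNPR were sought over the 5 clusters by scaling each gene's means over all cells to its highest cluster and taking the distance between profiles, for 2581 other genes with a share of 10% or more in any cluster. The median distance was 0.99. The 10 nearest lay within 0.18, and the next, galnt2, lay at the same rounded distance, so the end of this list is not sharp. All 10 had their highest mean in c3 and at least a 2-fold larger share in c3 than in c5, which the choice by likeness to SYNPR brings about. The points share libraries and depth, and no p is given.

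Among the 10 were tjp1a and jam3b, cell junction genes known from mutants with altered stripes. tjp1a, which encodes a scaffold of tight junctions, was in 44.3% of c3 cells, 2.78% of c5 cells, 19.6% of c1 cells, 21.6% of c2 cells and 59.8% of c4 cells, at a distance of 0.11. jam3b, which encodes a junctional adhesion molecule, was in 43.4% of c3 cells, 6.94% of c5 cells, 23.7% of c1 cells, 25.0% of c2 cells and 59.8% of c4 cells, at 0.15. The numbers of cells with jam3b were the same as those with SYNPR in c5, c1 and c4. Such equal numbers were not particular to jam3b. They also held for tjp1a and uchl1 in c4, for zgc:110699 in c1, and for uchl1 and pax7a in c5. Whether the cells with jam3b were those with SYNPR was not analysed here.

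kcnip3b, whose product belongs to a family of calcium sensors that bind potassium channels, was in 27.9% of c3 cells, 4.17% of c5 cells, 11.3% of c1 cells, 10.2% of c2 cells and 34.1% of c4 cells, at 0.14. camk1db, a calmodulin-dependent kinase gene, was in 15 c3 cells (12.3%) and 1 c5 cell (1.39%), at 0.15.

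arhgap36 was in 33.6% of c3 cells and 8.33% of c5 cells at a distance of 0.12. fhl2b, a LIM domain gene, was in 32.0% and 8.33% at 0.15, and rtn4a, a reticulon gene of the endoplasmic reticulum, in 16.4% and 5.56% at 0.18. zgc:110699, known only by a clone symbol, was in 45.1% of c3 cells at a distance of 0.16. Its count in c5 was 0 of 72, where 3 cells would make 4.17%. The nearest gene of all, rsrc2, was found in only 13 cells of c3 and 2 of c5, at 0.11, and cul4b, a ubiquitin ligase scaffold gene, in 13 and 2, at 0.17. Profiles built on so few cells carry a large counting error.

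**Figure D5:**
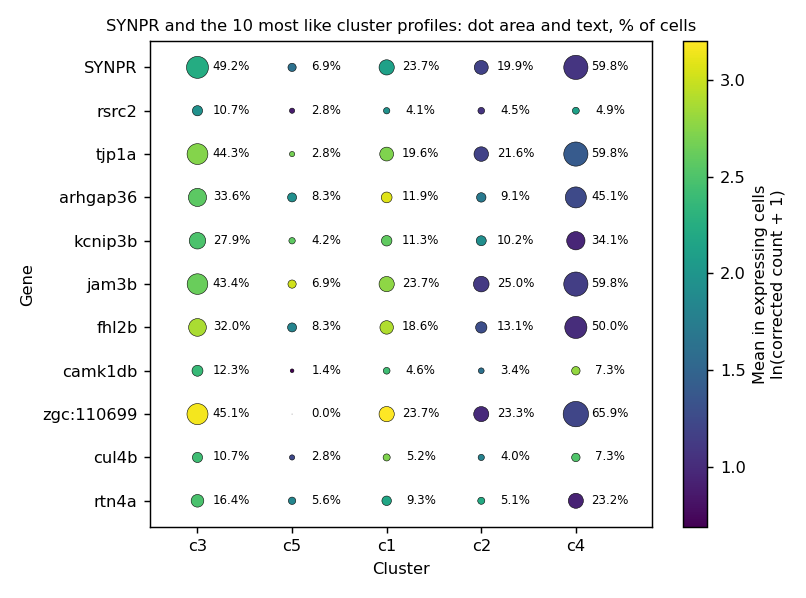
SYNPR and the 10 genes with the nearest cluster profiles (rows, nearest at the top) in clusters c3, c5, c1, c2 and c4 (columns). Dot area and the number beside it give the percent of cells with the gene, and colour gives the mean in expressing cells as ln(corrected count + 1). For 7 of the 10 the share was larger in c4 than in c3, as for SYNPR, while the colour is darker in c4 for those 7.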

How the data were processed

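The authors trimmed reads with Cutadapt, aligned them to GRCz11 with STAR and counted unique molecular identifiers with STARsolo. They limited cells by features and counts, removed mitochondrial and spike-in features, and normalized and clustered the cells with SCTransform in Seurat, so values depend on that correction. The submitters' processing notes also name bcl2fastq 2.20. The deposited percent is the percent of a cluster's cells with a value above 0. The deposited mean and SD are on a natural log scale, ln(corrected count + 1), over those cells. A second deposited table holds the authors' own comparison of c5 with c3, with log fold changes and p-values, and was not used.

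Cell numbers were recovered from the percents to within 0.005 percentage points. Means and SDs over all cells were rebuilt with cells lacking the gene at 0, and the rebuilding was tested on simulated data. The mean number of genes detected in a cell was obtained by adding up all genes' shares. For a count of 0 the upper limit is 3 cells. Shares were compared by a 2-fold rule for genes in at least 10% of cells, since 1 pooled value per cluster allows no test. Every list member past the fold reached 10% in only 1 of c3 and c5, the one with the larger share. Its direction is thus partly set by the filter. Gene identifiers matched the reference names for 18929 of 19914 features. Python 3.11.15 and scipy 1.17.1 were used.

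Lists held 14 groups: synaptophysin and synaptogyrin family, other MARVEL domain proteins, synaptic vesicle, SNARE and membrane fusion, iridophore, xanthophore, melanophore, neuron, Schwann and glia, neuroendocrine and Merkel, keratinocyte, fibroblast, immune and endothelial. SYNPR and the lists were chosen with earlier results of these data known. Named genes are SYNPR, family members, the 10 nearest profiles, the 3 members per list (or fewer) whose share peaks highest, and members past the fold where 5 or fewer. Further family members, markers at 0, the genes of the share window and those under other observations were named after their values were seen. Settings tried were the scale of the share, expressing cells only, other filters and folds, and other measures of likeness.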

Additional observations from a re-analysis of the deposited data

How the results depend on the processing

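No paired analysis was possible because the values used here pool all libraries within each cluster and give none per library. Values per library were not analysed here. Of 26 alternatives, 12 kept their value within counting error or within 1.5 times and 14 moved. A turned direction was not scored apart from these. The ratio of SYNPR shares moved only for c3 over c4, from 0.82 to 1.36 when divided by genes detected per cell. That change turned its direction, while the rates implied by the shares gave 0.74. Divided by genes detected per cell, the ratio for c3 over c1 went from 2.07 to 1.93, under 2, and was counted as kept. With expressing cells only, the difference of means was 0.62 for c3 minus c5, 0.12 for c3 minus c1 and 1.16 for c3 minus c4. The place of SYNPR among genes by c3 minus c5 was 14 with rebuilt means. Of the 10 genes most like SYNPR, 3 remained with shares of cells, 4 with Pearson correlation over the clusters and 6 with genes in at least 25% of cells, and tjp1a and jam3b were in all of these lists. Counts past the fold depended on the threshold. With a fold of 1.5, 354 of the 1779 genes had the larger share in c3 and 453 in c5. Of the 4 family members tested, 2 had it in c3, SYNPR itself among them. With a fold of 2 and genes in at least 5% of cells, 850 had it in c3 and 1188 in c5, and 7 of the SNARE list had it in c5. How many genes were tested at this filter was not recorded, so the 7 cannot be set beside the share of all genes. The fewer cells a filter asks for, the more genes are tested and the more rest on few cells. The 5 cells of c5 with SYNPR limit its level there most.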

Other observations

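The values of 3 further genes, picked after they were seen and on none of the lists, are given here. bsnb, related to the bassoon gene of the presynaptic active zone in mammals, was found in 77.0% of c3 cells (68.6 to 84.2%), 52.8% of c5 cells (40.7 to 64.7%), 67.5% of c1 cells, 81.8% of c2 cells and 100% of c4 cells. Its mean over expressing cells was 1.38 in c3, 0.95 in c5, 1.31 in c1, 2.27 in c2 and 4.0 in c4, so unlike SYNPR its level per cell was highest in c4. sytl2b, a synaptotagmin-like gene whose mammalian relatives link vesicles to Rab27, was in 92.6% of c3 cells (86.5 to 96.6%), 77.8% of c5 cells (66.4 to 86.7%), 80.9% of c1 cells, 73.3% of c2 cells and 97.6% of c4 cells. vapal, of the family that anchors the endoplasmic reticulum to other membranes, was in 54.1% of c3 cells (44.8 to 63.2%), 15.3% of c5 cells (7.88 to 25.7%), 26.8% of c1 cells, 44.9% of c2 cells and 75.6% of c4 cells.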
